A study of Danio rerio with 16 samples.

Results

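The 9 genes of the Vegf receptor and ligand family described here were chosen by symbol as kdrl, kdr, flt1, flt4, nrp1a, nrp1b, vegfaa, vegfab and vegfc. Each matched 1 row of the 32520 genes in the count table, and all 9 passed the filter on low counts, which kept 19903 genes. The data are RNA sequencing counts from whole zebrafish embryos at 15 hpf (hours post fertilization), with 8 genotypes and 2 libraries of each. The genotypes combine intact and mutant gfi1aa, gfi1b and gfi1ab, which encode 3 related zinc-finger repressors, in every way. In 4 genotypes gfi1aa was lost, namely gfi1aa-/- (allele smu10), gfi1aa/1b DM (gfi1aa-/-;gfi1b-/-), gfi1aa/1ab DM (gfi1aa-/-;gfi1ab-/-) and the triple mutant gfi1 TM (gfi1aa-/-;gfi1b-/-;gfi1ab-/-). In the other 4 it was intact, namely gfi1b-/- (allele smu11), gfi1ab-/- (allele smu12), gfi1b/1ab DM (gfi1b-/-;gfi1ab-/-) and wild type (WT). Each mutation is carried by every cell of the embryo. Mutant embryos were sorted by genotyping from a separate intercross for each genotype, except that the cross behind gfi1b/1ab DM is not given. Single mutants came from parents heterozygous for that gene. As the methods write the crosses, parents of gfi1aa/1b DM and gfi1aa/1ab DM were heterozygous for gfi1aa and mutant for the other gene. Those of gfi1 TM were mutant for gfi1aa and gfi1b and heterozygous for gfi1ab. WT embryos are described as siblings without saying of which cross. Clutch and parental genotype therefore cannot be told apart from the genotype of the embryos. The number of embryos per library is not given in the sources used here, and the p-values measure only the spread between the deposited libraries.

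Vegf ligands are secreted growth factors that bind receptor tyrosine kinases on endothelial cells and their precursors, the angioblasts. Vegfa drives the growth, migration and survival of these cells through Kdrl and Kdr, the zebrafish counterparts of mammalian VEGFR2, while Flt1 (VEGFR1) binds Vegfa tightly and acts largely as a decoy, and Flt4 (VEGFR3) is the receptor of Vegfc, best known for venous sprouting and lymphatic growth. Neuropilins bind Vegfa beside the kinase receptors and also serve semaphorins in axon guidance. At the stage sampled, angioblasts and primitive blood cells are forming side by side in the lateral mesoderm.

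The libraries held 15657371 to 22524501 counts on genes. Levels are given as CPM, that is, counts scaled to a common library size after TMM normalization, and are compared only between libraries for the same gene, since transcript lengths were not used here. Counts of the 9 genes ran between 25 in the lowest library for vegfab and 3103 in the highest for nrp1a. The libraries hold whole embryos, so a lower number of cells of a type and less RNA per cell cannot be told apart. Replicates of gfi1 TM differed more than those of any other genotype (SD of the log2 difference 0.372, against 0.154 in gfi1aa/1b DM, the lowest, over genes with a mean of at least 5 CPM), and the results for averaged loss were therefore also computed without gfi1 TM. Its replicate 2 also had the largest share of reads not counted on a gene (22.74%, against 20.45% in the next library, gfi1b/1ab DM replicate 1). The same replicate held the highest levels of kdrl, flt4, nrp1b, vegfab and vegfc among the 16 libraries. Whether these are linked was not tested. The counts of the 3 mutated genes did not identify the genotypes. With the gene lost and intact, gfi1aa averaged 8.95 and 10.8 CPM, gfi1b 4.02 and 3.89 CPM, and gfi1ab 2.67 and 1.87 CPM (8 libraries each).

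The first question was whether loss of gfi1aa changed the Vegf genes, averaged over the 4 backgrounds (both other genes intact, gfi1b lost, gfi1ab lost, or both lost). The receptors kdrl, flt4 and flt1 rose by 1.45-fold, 1.47-fold and 1.51-fold, and the 6 other members did not pass the threshold. Past the threshold means an adjusted p under 0.05 in edgeR's quasi-likelihood test with Benjamini-Hochberg adjustment over the 19903 genes. Of all genes tested, 7.08% were called higher and 7.47% lower in this comparison, and of the 9 members 3 were higher and 0 lower (4 had an unadjusted p under 0.05, against 29.5% of all genes). The median log2 fold change of the 9 members was 0.21.

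**Figure D1:**
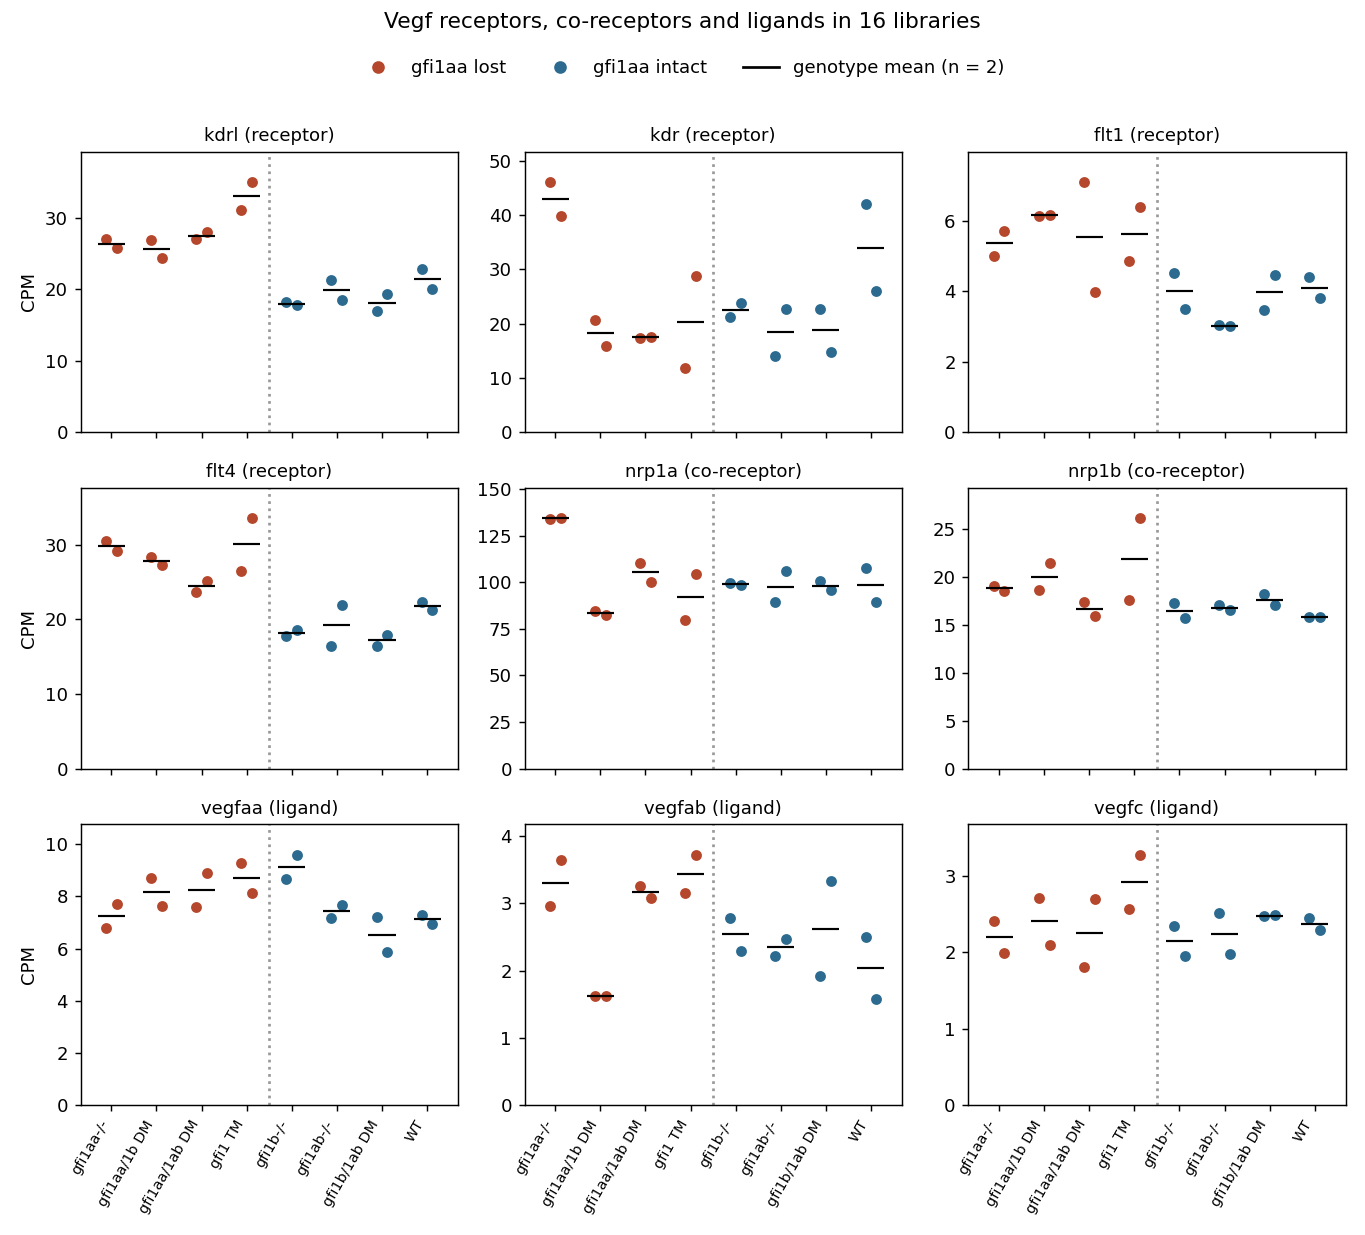
Level of each of the 9 genes in CPM (vertical axes, starting at 0) in the 8 genotypes, with 1 point per library, a line at the mean of the 2 replicates and the gfi1aa-lost genotypes left of the dotted line. All 8 gfi1aa-lost libraries lie above all 8 gfi1aa-intact ones for kdrl and flt4, while the replicates of kdr lie far apart in several genotypes.

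kdrl (ENSDARG00000105215), the receptor also known in zebrafish as flk1, had 27.0 and 25.8 CPM in gfi1aa-/-, 26.9 and 24.4 CPM in gfi1aa/1b DM, 27.0 and 28.0 CPM in gfi1aa/1ab DM, and 31.1 and 35.1 CPM in gfi1 TM. It had 18.2 and 17.7 CPM in gfi1b-/-, 21.2 and 18.6 CPM in gfi1ab-/-, 16.99 and 19.3 CPM in gfi1b/1ab DM, and 22.9 and 20.05 CPM in WT. No library of one side reached the other, and the triple mutant libraries were the highest of all. The mean was 28.2 ± 3.39 CPM in gfi1aa-lost libraries and 19.4 ± 1.95 CPM in gfi1aa-intact libraries (SD, n = 8 each). The log2 fold change was 0.54 (standard error 0.053, 95% interval 0.42 to 0.65, edgeR adjusted p = 1.67e-05). In the order of genotype means, gfi1 TM stood apart from gfi1aa/1ab DM and gfi1aa/1b DM stood apart from WT, while all other neighbours overlapped.

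flt4 (ENSDARG00000104453) had 30.5 and 29.1 CPM in gfi1aa-/-, 28.3 and 27.2 CPM in gfi1aa/1b DM, 23.7 and 25.2 CPM in gfi1aa/1ab DM, and 26.5 and 33.6 CPM in gfi1 TM. It had 17.7 and 18.6 CPM in gfi1b-/-, 16.5 and 22.0 CPM in gfi1ab-/-, 16.5 and 17.9 CPM in gfi1b/1ab DM, and 22.3 and 21.3 CPM in WT. As with kdrl, the 8 libraries without gfi1aa were all higher than the 8 with it, although gfi1aa/1ab DM came close to the highest intact libraries. The means were 28.0 ± 3.12 CPM with gfi1aa lost and 19.1 ± 2.41 CPM with gfi1aa intact (SD, n = 8 each), a log2 fold change of 0.55 (standard error 0.065, 95% interval 0.41 to 0.69, edgeR adjusted p = 7.80e-05). Complete separation of 8 libraries from 8 in this direction occurred in 0.312% of all genes tested and in 2 of the 9 members. The study had itself picked flt4 among its endothelial genes from these libraries, so its direction here is not independent evidence.

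flt1 (ENSDARG00000019371) was counted far less, with 52 to 132 counts per library. Its levels were 5.01 and 5.72 CPM in gfi1aa-/-, 6.14 and 6.18 CPM in gfi1aa/1b DM, 7.12 and 3.98 CPM in gfi1aa/1ab DM, and 4.85 and 6.39 CPM in gfi1 TM, against 4.52 and 3.51 CPM in gfi1b-/-, 3.03 and 3.01 CPM in gfi1ab-/-, 3.48 and 4.48 CPM in gfi1b/1ab DM, and 4.40 and 3.81 CPM in WT. Of the 8 gfi1aa-lost libraries 7 exceeded every intact one, the exception being gfi1aa/1ab DM replicate 2. The log2 fold change was 0.59 (standard error 0.13, 95% interval 0.32 to 0.86, edgeR adjusted p = 0.00627).

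kdr (ENSDARG00000017321), the second VEGFR2 counterpart, showed no such pattern. It had 46.2 and 39.9 CPM in gfi1aa-/-, 20.7 and 15.9 CPM in gfi1aa/1b DM, 17.4 and 17.5 CPM in gfi1aa/1ab DM, and 11.8 and 28.8 CPM in gfi1 TM. It had 21.2 and 23.8 CPM in gfi1b-/-, 14.1 and 22.7 CPM in gfi1ab-/-, 22.7 and 14.9 CPM in gfi1b/1ab DM, and 42.0 and 26.0 CPM in WT. The highest levels were in gfi1aa-/- and 1 WT library, and the replicates differed by 2.44-fold in gfi1 TM, 1.62-fold in WT and 1.60-fold in gfi1ab-/-. The averaged log2 fold change for loss of gfi1aa was 0.01 (standard error 0.17, 95% interval -0.34 to 0.37), so an averaged change of the size seen for kdrl lay outside its interval. In single backgrounds the intervals of kdr were wider. They held that size with both other genes intact (-0.33 to 1.01), with gfi1ab lost (-0.82 to 0.65) and with both lost (-0.62 to 0.82). With gfi1b lost the interval did not hold it (-1.03 to 0.42). The pooled SD of log2 CPM within genotypes was 0.445 for kdr, against 0.102 for kdrl and a median of 0.114 over the 6097 genes with a mean of 10 to 50 CPM, of which 51 varied more than kdr.

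Among the co-receptors, nrp1a (ENSDARG00000102153) had 134 CPM in both gfi1aa-/- libraries, 84.4 and 82.4 CPM in gfi1aa/1b DM, 110.5 and 100.2 CPM in gfi1aa/1ab DM, and 79.6 and 104.5 CPM in gfi1 TM, against 89.2 to 107.5 CPM in the 8 gfi1aa-intact libraries. The gfi1aa-lost libraries thus lay on both sides of the intact ones, 3 above them all and 3 below them all, and the averaged log2 fold change was 0.05 (standard error 0.058). nrp1b (ENSDARG00000027290) had between 15.9 and 26.2 CPM (median 18.6) in the gfi1aa-lost libraries and between 15.8 and 18.2 CPM (median 16.8) in the intact ones. Of its 8 gfi1aa-lost libraries 5 exceeded every intact one, but the log2 fold change of 0.21 (standard error 0.073) did not pass the threshold (edgeR adjusted p = 0.0729). It passed without gfi1 TM replicate 1 (0.27, adjusted p = 0.00286), and with no filter on low counts (0.20, adjusted p = 0.0317), which both raise the number of members called to 4. nrp1b shares a chromosome with gfi1aa in the RefSeq gene table of GRCz12tu, though not within 10 Mb, and the 8 other members are on other chromosomes than gfi1aa.

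The ligands had low counts and overlapping groups. vegfaa (ENSDARG00000103542), the main Vegfa ligand of the early embryo, had between 6.80 and 9.27 CPM (median 7.91) with gfi1aa lost and between 5.87 and 9.61 CPM (median 7.25) with gfi1aa intact. vegfab (ENSDARG00000034700), its duplicate, had between 1.62 and 3.72 CPM (median 3.12) with gfi1aa lost and between 1.57 and 3.33 CPM (median 2.38) with it intact. vegfc (ENSDARG00000069640), the Flt4 ligand, had between 1.81 and 3.28 CPM (median 2.49) with gfi1aa lost and between 1.95 and 2.51 CPM (median 2.40) with it intact. Their averaged log2 fold changes were 0.11 (95% interval -0.06 to 0.27), 0.22 (-0.09 to 0.53) and 0.07 (-0.20 to 0.35), and the upper ends of these intervals lay below the value of kdrl, for vegfab only just. In single backgrounds no ligand was called, but the intervals were wider. vegfab ran from -0.64 (-1.29 to 0.01) in gfi1aa/1b DM to 0.70 (0.11 to 1.30) in gfi1aa-/-. In gfi1 TM, their highest background, vegfaa was at 0.41 (0.09 to 0.74) and vegfc at 0.23 (-0.30 to 0.77). These 3 highest intervals held the averaged value of kdrl.

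**Figure D2:**
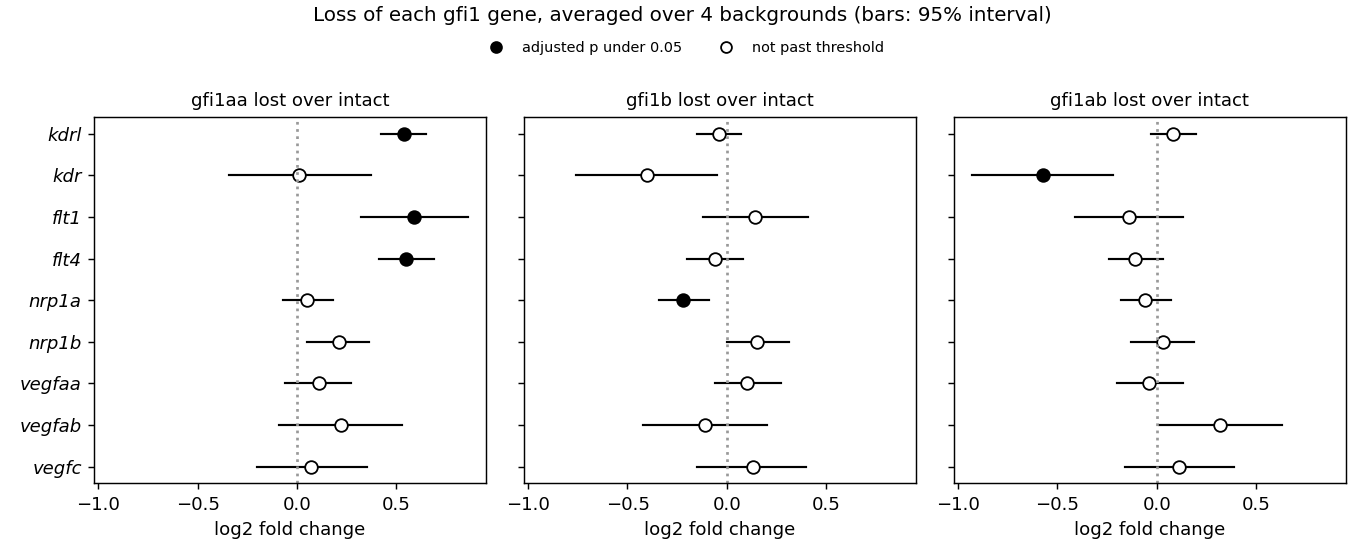
Log2 fold change of each gene (horizontal axes) for loss of gfi1aa, gfi1b and gfi1ab, averaged over 4 backgrounds, with 95% intervals and filled points where the adjusted p was under 0.05. kdrl, flt1 and flt4 are filled at 0.54 to 0.59 for gfi1aa, nrp1a at -0.22 for gfi1b and kdr at -0.57 for gfi1ab.

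The 3 receptor calls were kept in every fit that left out 1 library (adjusted p at most 0.022, for flt1) and without either all gfi1 TM or all gfi1aa-/- libraries. Without gfi1 TM or gfi1aa-/-, the average ran over the backgrounds that kept both sides, so gfi1b/1ab DM or WT left it too. The log2 fold changes of kdrl, flt4 and flt1 were 0.43, 0.47 and 0.63 without gfi1 TM. Without gfi1aa-/- they were 0.61, 0.57 and 0.65. The 3 receptor calls were lost when the 2 replicates were summed and the 8 genotypes alone gave the spread: the log2 fold changes were then 0.54, 0.54 and 0.58 for kdrl, flt4 and flt1, with adjusted p = 0.15, 0.147 and 0.382, and 17 genes of all those tested were called.

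Loss of gfi1aa was then compared background by background. These comparisons share no libraries with one another, but they share 1 estimate of spread. kdrl, flt1 and flt4 had positive log2 fold changes in all 4 backgrounds. In gfi1aa-/- against WT, flt4 (0.45, standard error 0.13, edgeR adjusted p = 0.0298) and nrp1a (0.45, standard error 0.12, adjusted p = 0.02) were called, 2 of 9 members where 6.47% of all genes were higher, and kdrl was not (0.30, standard error 0.10, adjusted p = 0.0809). By in situ hybridization at a later stage, the study reported more flk1-positive endothelial cells in gfi1aa-/- embryos. That is another measure and stage than these libraries. In gfi1aa/1b DM against gfi1b-/-, kdrl (0.51, adjusted p = 0.014) and flt4 (0.61, adjusted p = 0.0155) were called where 2.42% of all genes were higher. In gfi1aa/1ab DM against gfi1ab-/-, kdrl (0.47, adjusted p = 0.00967) and flt1 (0.87, adjusted p = 0.0387) were called where 5.88% of all genes were higher. In gfi1 TM against gfi1b/1ab DM, kdrl (0.87, adjusted p = 0.000465) and flt4 (0.80, adjusted p = 0.00512) were called where 1.05% of all genes were higher, and neither was called when only these 4 libraries were fitted (adjusted p = 0.123 and 0.202, with 14 genes called in all).

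**Figure D3:**
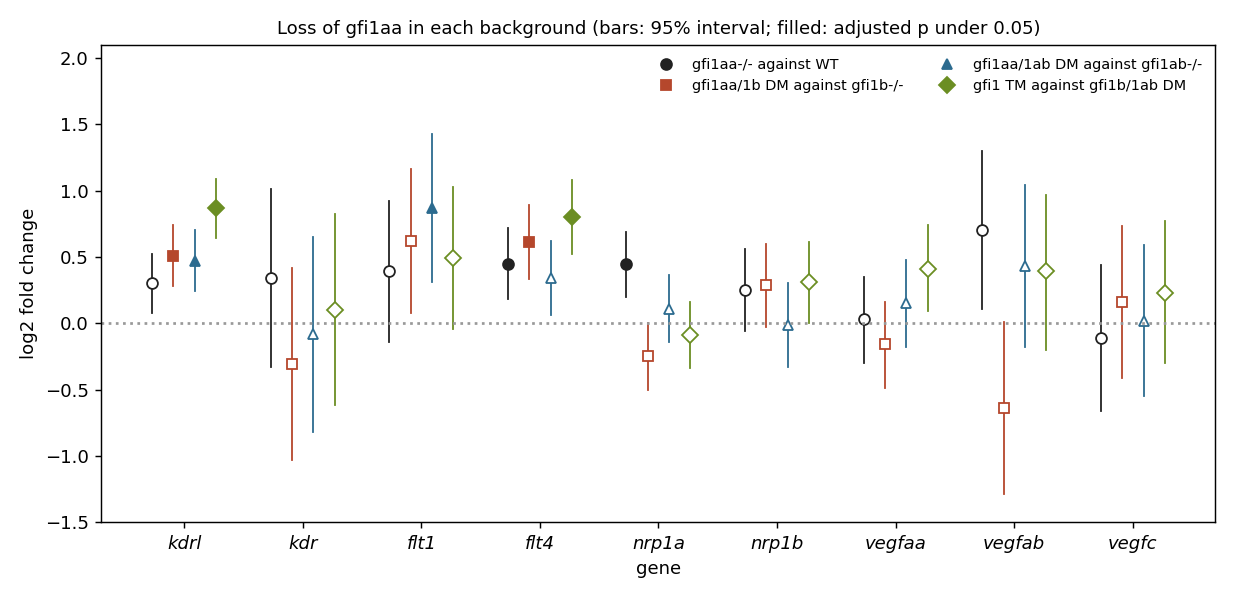
Log2 fold change of each gene for loss of gfi1aa in each of the 4 backgrounds (vertical axis), with 95% intervals and filled symbols where the adjusted p was under 0.05. kdrl lies between 0.30 and 0.87 and flt4 between 0.34 and 0.80 in all 4, whereas vegfab lies between -0.64 and 0.70.

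With 2 libraries a side, leaving out 1 left its side with only 1 library, and the calls by background often ended. Over the fits that left out 1 library, the log2 fold change in gfi1aa/1b DM against gfi1b-/- stayed between 0.58 and 0.65 for flt4. For kdrl there it stayed between 0.44 and 0.58. It ran from 0.62 to 0.96 for flt4 in gfi1 TM and from 0.40 to 1.23 for flt1 in gfi1aa/1ab DM. Leaving out either replicate of either genotype ended both calls in gfi1aa/1b DM against gfi1b-/- (kdrl adjusted p 0.0562 to 0.145, flt4 0.0951 to 0.126) and the flt4 call in gfi1aa-/- against WT (0.0918 to 0.168). The nrp1a call ended without gfi1aa-/- replicate 1 (0.101), gfi1aa-/- replicate 2 (0.108) or WT replicate 2 (0.225). In gfi1aa/1ab DM against gfi1ab-/-, the kdrl call ended without gfi1ab-/- replicate 2 (0.112) or gfi1aa/1ab DM replicate 2 (0.0643), and the flt4 call in gfi1 TM ended without gfi1b/1ab DM replicate 1 (0.0919). The flt1 call in gfi1aa/1ab DM was lost with DESeq2 (adjusted p = 0.0521) and when only these 4 libraries were fitted (0.091). It fell to a log2 fold change of 0.40 (adjusted p = 0.384) without gfi1aa/1ab DM replicate 1, and it ended without any other library (0.0508 to 0.169) except gfi1b-/- replicate 2, gfi1aa/1ab DM replicate 2 and the libraries of gfi1b/1ab DM and gfi1 TM.

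Whether the effect of gfi1aa loss depended on the other genes was tested as an interaction. nrp1a was the 1 member called for gfi1aa by gfi1b, where 1.83% of all genes were called lower: the effect of gfi1aa loss was lower by 0.45 on the log2 scale with gfi1b lost than with gfi1b intact (standard error 0.12, edgeR adjusted p = 0.0453). nrp1a was at 83.4 ± 1.43 CPM in gfi1aa/1b DM and 99.1 ± 1.07 CPM in gfi1b-/-, and at 134 ± 0.322 CPM in gfi1aa-/- and 98.5 ± 12.7 CPM in WT (SD, n = 2 each). The call stood at the threshold: the adjusted p rounded to 0.05 but was no longer under it with DESeq2's size factors and lay between 0.0598 and 0.114 without any 1 library other than gfi1ab-/- replicate 2, WT replicate 1 and the libraries of gfi1 TM. kdrl, for which the fold change was largest in gfi1 TM, had interactions of 0.30 (adjusted p = 0.126) and 0.26 (adjusted p = 0.141) with gfi1b and gfi1ab, neither past the threshold. For gfi1aa by gfi1ab no member was called by edgeR, where it called 8.6% of all genes, and DESeq2 also called 0. An unadjusted p under 0.05 occurred for 2 members there (24.8% of all genes) and for 4 in gfi1aa by gfi1b (18.7% of all genes).

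Loss of gfi1b and of gfi1ab, averaged in the same way, gave 1 call each among the 9 members, a share near or below that of all genes (9.74% and 23.9% called in either direction), so the counts are no result about the members. With gfi1b lost, nrp1a was lower by 0.22 on the log2 scale (standard error 0.058, edgeR adjusted p = 0.0304), 1 of 9 members where 5.03% of all genes were lower. Its means were 93.2 ± 9.54 CPM in gfi1b-lost and 108.9 ± 17.4 CPM in gfi1b-intact libraries (SD, n = 8 each). With gfi1aa intact, genotype means were 99.1 and 98.2 CPM in gfi1b-/- and gfi1b/1ab DM, against 98.5 and 97.6 CPM in WT and gfi1ab-/-. With gfi1aa lost, they were 83.4 and 92.1 CPM in gfi1aa/1b DM and gfi1 TM, against 134 and 105 CPM in gfi1aa-/- and gfi1aa/1ab DM. The drop behind this call was therefore seen only with gfi1aa lost. That call ended with an additive model that has 1 term per mutated gene (adjusted p = 0.246), with a model of the 2 sides alone (0.308) and with counts summed per genotype (0.923), and also (0.0657 to 0.0908) without any 1 library other than gfi1ab-/- replicate 1, gfi1aa/1ab DM replicate 2, gfi1b/1ab DM replicate 1, WT replicate 2 and those of gfi1 TM. With gfi1ab lost, kdr was lower by 0.57 (standard error 0.17, adjusted p = 0.0229), 1 of 9 where 11.2% of all genes were lower. Its means were 18.7 ± 5.61 CPM in gfi1ab-lost and 29.5 ± 11.5 CPM in gfi1ab-intact libraries (SD, n = 8 each), and the intact side held the high libraries of gfi1aa-/- and WT beside 15.9 CPM in gfi1aa/1b DM replicate 2. The kdr call ended under the same 3 alternatives (adjusted p = 0.084, 0.0871 and 0.347), and without gfi1aa-/- replicate 1 (adjusted p = 0.0526), gfi1b-/- replicate 2 (0.0515), gfi1ab-/- replicate 1 (0.0574), gfi1aa/1b DM replicate 1 (0.0625), gfi1b/1ab DM replicate 2 (0.0596) or WT replicate 1 (0.0565).

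kdrl, flt4 and flt1 did not pass the threshold for loss of gfi1b (-0.04, -0.06 and 0.14) or gfi1ab (0.08, -0.11 and -0.14), and for kdrl the 95% intervals were -0.15 to 0.07 and -0.03 to 0.20. In the gfi1aa-intact mutants against WT, edgeR called 0 of the 9 members in each of gfi1b-/-, gfi1ab-/- and gfi1b/1ab DM, where 9.46%, 10.3% and 10.6% of all genes were called. An unadjusted p under 0.05 occurred for 2, 1 and 3 members, where 23.8%, 24.1% and 24.4% of all genes had it. DESeq2 called 0 members in each. In gfi1b/1ab DM the values were -0.24 for kdrl (adjusted p = 0.179), -0.34 for flt4 (0.123) and -0.85 for kdr (0.119). These comparisons share the WT libraries with gfi1aa-/- against WT.

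Other genes of the pathway were read from lists. Of 10 further Vegf ligands and co-receptors, 8 were in the table and 6 were tested, and for loss of gfi1aa none passed the threshold (median log2 fold change -0.07, against 0.00223 for all genes tested). The ligands vegfba and vegfd were below 1 CPM, and the co-receptors nrp2a (40.1 ± 4.22 and 40.6 ± 3.66 CPM with gfi1aa lost and intact, SD, n = 8 each) and nrp2b (160 ± 25.0 and 153 ± 5.02 CPM) had log2 fold changes of -0.02 and 0.06. Of 4 genes for the processing of Vegfc, which include ccbe1 and the protease gene adamts3, 0 were called, with adamts3 at -0.23 (adjusted p = 0.0689).

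Downstream of the receptors, 30 genes of signal transduction were tested, of which 3 were higher and 1 lower (median 0.00), close to the 7.08% and 7.47% of all genes called in these directions. rasip1, a Ras-interacting protein needed for vascular tube formation, averaged 6.26 ± 1.35 CPM with gfi1aa lost and 3.15 ± 0.858 CPM with it intact (SD, n = 8 each), a log2 fold change of 1.02 (edgeR adjusted p = 0.000135) without overlap between the groups. plcg2 (0.30, adjusted p = 0.047), a phospholipase C, and prkd2 (0.18, adjusted p = 0.0249), a protein kinase D, rose by less. The heat shock protein gene hsp90aa1.1 (-0.17, adjusted p = 0.0078) fell. plcg1, the phospholipase known to act below Kdrl in zebrafish arteries, had -0.10 (adjusted p = 0.0868).

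Of 15 tested regulators that act upstream of Vegf ligands, 0 were higher and 4 lower (median -0.04), where 7.08% of all genes were higher and 7.47% lower. Among these, shha (-0.20, edgeR adjusted p = 0.0137), the Hedgehog ligand of notochord and floor plate, and gli1 (-0.25, adjusted p = 0.00234), a Hedgehog target, were lower. So was arnt2 (-0.20, adjusted p = 0.002), a partner of hypoxia-inducible factors. The oxygen-sensing genes hif1ab (-0.08), epas1a (0.12) and vhl (0.06) did not pass the threshold.

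**Figure D4:**
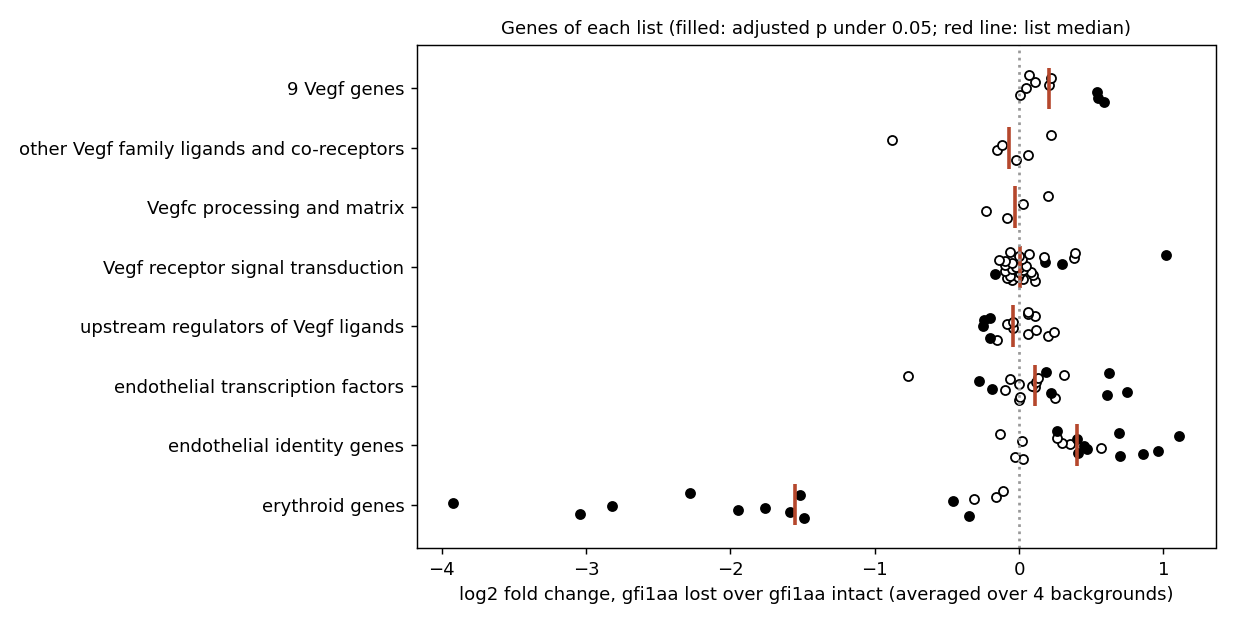
Log2 fold change for loss of gfi1aa, averaged over 4 backgrounds (horizontal axis), of each tested gene in 8 lists, with filled points where the adjusted p was under 0.05 and a red line at the list median. The medians are 0.21 for the 9 Vegf genes, 0.41 for endothelial identity genes, 0.11 for endothelial transcription factors, 0.00 for receptor signal transduction and -1.56 for erythroid genes.

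The embryos hold many cell types, so marker lists were set beside the receptors, and their counts stand beside the 7.08% of all genes called higher and 7.47% called lower. Of 18 tested endothelial identity genes 10 were higher and 0 lower with gfi1aa lost (median 0.41), among them stab2 (1.11), clec14a (0.96), cdh5 (0.86), which encodes VE-cadherin, arhgef9b (0.70), tie1 (0.69), dusp5 (0.47), egfl7 (0.45) and cldn5b (0.41). tek, an angiopoietin receptor gene, was at -0.13 (edgeR adjusted p = 0.282). Of 19 endothelial transcription factors 5 were higher and 2 lower (median 0.11), with fli1b (0.75), sox7 (0.62) and etv2 (0.61), a factor that promotes endothelial fate, at the top. fli1a (0.22) and tal1 (0.19), which is shared with blood precursors, rose by less, and mef2ca (-0.28) and foxc1b (-0.19), which also act in other mesoderm, fell. The study picked cdh5, clec14a, egfl7, etv2 and sox7 from these libraries, so these counts are not independent evidence. For etv2 and sox7 it also reported increases in gfi1aa-/- embryos by in situ hybridization, qPCR and reporter assays. Its in situ hybridization showed no change of scl (tal1), gata2 and fli1 in such embryos. That is another measure than the counts, in which tal1, fli1a and fli1b were called higher. The summed level of the 20 identity genes was 270 to 350 CPM (median 289) in gfi1aa-lost and 220 to 249 CPM (median 237) in gfi1aa-intact libraries, and pecam1 and plvapa, which could not be tested, were below 1 CPM. The largest parts of this sum were aplnra (means 46.3 and 45.2 CPM with gfi1aa lost and intact) and aplnrb (47.3 and 48.4 CPM). Neither passed the threshold (log2 fold changes 0.03 and -0.03).

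Among markers of other cell types, the erythroid genes fell. Of 14 tested erythroid genes 0 were higher and 11 lower (median -1.56), with a summed level of 87.2 to 112 CPM in gfi1aa-lost and 158 to 211 CPM in gfi1aa-intact libraries. The study had itself shown several of them as lower in these libraries, among them gata1a, alas2, hbae3, hbbe3, sptb and epb41b. The erythroid counts are therefore not independent evidence. The study also reported lower gata1 and alas2 in gfi1aa-/- embryos by in situ hybridization. The somite and muscle list summed to 735 to 985 CPM in gfi1aa-lost and 882 to 1107 CPM in gfi1aa-intact libraries (1 of 13 higher and 1 lower), and the neural list to 1261 to 1380 and 1242 to 1410 CPM (0 of 12 called). The endoderm and pronephros list had 0 of 8 called (median 0.06). Of 8 myeloid genes 3 were tested, with lcp1 higher and spi1b lower, and mpx, lyz and mpeg1.1 were near 0. The part of these lists in the receptor results was not tested.

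**Figure D5:**
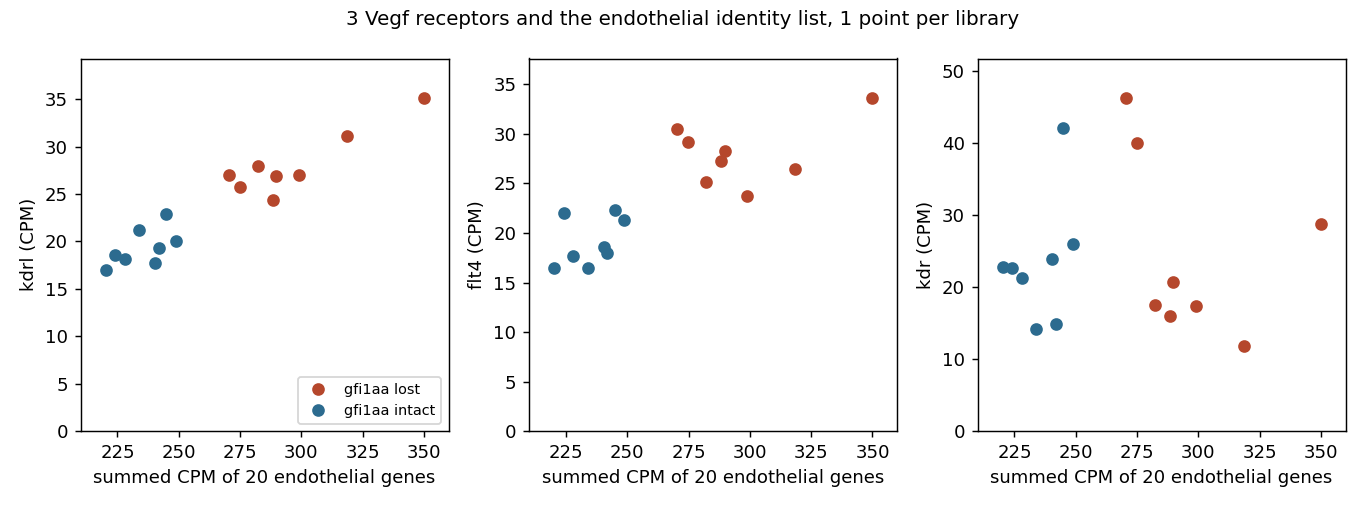
Levels of kdrl, flt4 and kdr in CPM (vertical axes, starting at 0) against the summed CPM of 20 endothelial identity genes (horizontal axes, not starting at 0), with 1 point per library. For kdrl and flt4 the 2 sets lie apart along both axes, with the gfi1 TM libraries at the right end, while for kdr they overlap in level.

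The libraries share genotypes and fall into 2 sets by gfi1aa, which differ in both the summed endothelial level and the receptors, so correlations are given as descriptions. For kdrl the Pearson r of log2 values with the summed level was 0.95 over the 16 libraries, 0.86 within the 8 gfi1aa-lost and 0.61 within the 8 gfi1aa-intact libraries. The value within the gfi1aa-lost set rested on the 2 gfi1 TM libraries, which had the highest levels of both, and was -0.04 over the other 6. For flt4 it was 0.84 over all libraries, 0.29 within the gfi1aa-lost set (-0.79 without gfi1 TM) and 0.42 within the intact set. For flt1 it was 0.78 over all, 0.31 within the gfi1aa-lost set (0.60 without gfi1 TM) and 0.42 within the intact set. For nrp1b it was 0.63 over all, but 0.59 within the gfi1aa-lost set (-0.09 without gfi1 TM) and -0.75 within the intact set. The values over all libraries were -0.08 for kdr, -0.07 for nrp1a, 0.32 for vegfaa, 0.34 for vegfab and 0.35 for vegfc. Among the members themselves, kdrl and flt4 were most alike (r = 0.86), followed by kdr and nrp1a (r = 0.77), whose levels were both highest in gfi1aa-/-.

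For each member the 3 genes most like it were taken among 16690 genes with a symbol and a mean of at least 1 CPM, by Pearson r of log2 CPM over the 16 libraries, as a description. For kdrl these were clec14a (0.95), cdh5 (0.94) and fli1b (0.94), and for flt4 sox7 (0.89), rasip1 (0.89) and stab2 (0.87). For flt1 they were stab2 (0.84), dnajc14 (0.84) and arrdc3b (0.83). None of the genes most like kdr belonged to the endothelial lists, namely slc7a8a (0.94), abcb11a (0.93) and kif1b (0.92). nrp1a was most like sorbs2b (0.92), CR387919.1 (0.92) and epd (0.91), and nrp1b most like the endothelial factor sox18 (0.83), sptlc2a (0.81) and zgc:113442 (0.81). The ligands had looser matches: ISCU (0.83), nxnl2 (0.79) and zgc:173575 (0.79) for vegfaa, eomesa (0.84), jun (0.82) and pdlim1 (0.81) for vegfab, and insb (0.74), ndrg1a (0.71) and ciao2b (0.71) for vegfc.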

How the data were processed

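Per the labels and the study's methods, RNA was extracted with TRIzol and prepared with a NEBNext Ultra kit, and the authors mapped reads to GRCz11 with STAR and deposited whole-number counts of reads per Ensembl gene, without normalization. The column joining both strands was used, since 49.9% to 50.2% of stranded assignments fell on the forward strand, so overlapping antisense genes cannot be separated. Reads not counted on a gene for any reason (19.6% to 22.7%) were left out. They include reads that matched more than 1 place, which can lower the counts of near-identical copies, and the share of those was not separated. The 16 columns of the series table equalled the library files, and 0 columns were left unused.

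Counts were normalized by TMM and tested in edgeR (4.0.16, R 4.3.3) with filterByExpr, 1 mean per genotype over all 16 libraries, 8 residual degrees of freedom and glmQLFTest. The study's methods name DESeq2, run here (1.42.0) as an alternative. Each standard error was the fold change over the root of its F value, and intervals are 95% intervals. CPM use TMM library sizes, and log2 CPM a prior count of 2. Tables and plots used Python (3.11.15), pandas (2.3.3), numpy (2.4.6) and matplotlib (3.10.9). The fit was also run on simulated counts with the same spread for all genes and no clutch effect. That run does not measure the errors made in these data.

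The members and gene lists were chosen with earlier results of these data known. The text names all 9 members, from each pathway list up to 8 genes past the threshold and others only with their values, and the 3 genes most like each member. Symbols matched the RefSeq table of GRCz12tu, used only for which genes share a chromosome, and no sequence was used here. The values of 1 gene counted in the lists are not reported here.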

Additional observations from a re-analysis of the deposited data

Results flagged for a closer look

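kdr stood out by 1 library: in the 8 gfi1aa-intact libraries, WT replicate 1 had 42.0 CPM and lay far above the others, of which the next highest was WT replicate 2 with 26.0 CPM. In all, 18 groups of 8 libraries were examined in this way (9 genes, 2 sides), and chance flags about 1 group in 20. Without WT replicate 1 the call of kdr for loss of gfi1ab was lost (-0.48, adjusted p = 0.0565).

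nrp1a differed between backgrounds: the effect of gfi1aa loss was lower by 0.45 on the log2 scale with gfi1b lost than with gfi1b intact (interaction term -0.45, edgeR adjusted p = 0.0453). The log2 fold changes for gfi1aa loss were -0.25 and -0.09 in the backgrounds with gfi1b lost, and 0.45 and 0.11 in those with gfi1b intact.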

How the results depend on the processing

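Counts of members called are of 9 throughout. For loss of gfi1aa, 3 were called as reported (2896 genes in all), with DESeq2, with DESeq2's size factors and with the replicate block. An additive model (727 in all) and 2 sides only (269 in all) also called 3. The count was 4 with no filter (nrp1b joining, 3601 in all) and 0 with counts summed per genotype (17 in all). Without any 1 library the count was 3 to 4. For gfi1b, the 1 call (1939 genes in all) became 2 with no filter (2765 in all) and 2 without both gfi1 TM libraries (2235 in all). It became 0 with the additive model (307 in all), 2 sides only (126 in all) and summed counts (0 in all), and often changed without 1 library. For gfi1ab, the 1 call (4761 genes in all) became 0 with the additive model (2107 in all), 2 sides only (1048 in all) and summed counts (3 in all). It was also lost in some fits without 1 library. The cause of these changes was not tested. Leaving out all gfi1 TM or all gfi1aa-/- libraries was chosen after seeing the data.

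By background, 2 calls became 4 when only the libraries compared were fitted for gfi1aa/1b DM, 1 (also with DESeq2 and the replicate block) for gfi1aa/1ab DM, and 0 for gfi1 TM. Apart from the gfi1 TM fit, totals over all genes are not set beside the counts of this paragraph. These counts are therefore no result about the members. Without 1 library the counts were 0 to 2 for gfi1aa-/-, 0 to 2 for gfi1aa/1b DM, 1 to 3 for gfi1aa/1ab DM and 1 to 3 for gfi1 TM. Against WT, gfi1b-/-, gfi1ab-/- and gfi1b/1ab DM had 1 call each with no filter, and 0 to 0, 0 to 1 and 0 to 1 without 1 library. The interaction with gfi1b had 0 calls with DESeq2's size factors and with the replicate block (nrp1a adjusted p = 0.0621) and 0 to 1 without 1 library, and that with gfi1ab 0 to 0.

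Uncalled log2 fold changes for loss of gfi1aa changed sign for kdr (-0.02 without both gfi1 TM libraries, -0.11 without both gfi1aa-/- libraries, -0.18 to 0.14 without 1 library), nrp1a (-0.09 without both gfi1aa-/- libraries) and vegfc (0.00 to 0.14 without 1 library).

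The replicate numbers share no stated origin. Over 12217 genes, same-numbered libraries deviated together (r above 0.1) in 4 and apart (below -0.1) in 6 of 28 pairs of genotypes (-0.324 to 0.339), so the replicate block was kept as an alternative. It ended the flt1 call in gfi1aa/1ab DM (adjusted p = 0.051) and the nrp1a interaction. For loss of gfi1aa the standard errors were 0.13 to 0.14 for flt1, vegfab and vegfc, which had at most 132 counts per library, and 0.17 for kdr, which had 242 to 922.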
